A study of Homo sapiens with 18 samples.

Results

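The MYC, MAX and MXD network is a family of transcription factors that pair through their basic helix-loop-helix and leucine zipper domains. Its 10 members were taken by gene symbol from the 26249 genes of each expression table: MYC, MYCN and MYCL, their partner MAX, the repressors MXD1, MXD3, MXD4 and MXI1, and the larger MAX partners MNT and MGA. Transcript levels came from 3′ end RNA sequencing of 18 libraries from cultures of a pair of lines, labelled XG1 and AMO1 and named as myeloma, a plasma cell cancer. Each line had received DMSO, the solvent, or YKL-5-124, a covalent inhibitor of the kinase CDK7, at 100 or 1000 nM. All cultures were treated for 6 h, and each of the 6 groups of line and treatment had 3 libraries. CDK7 phosphorylates RNA polymerase II at the start of transcription and activates kinases of the cell cycle. The series title calls the lines resistant and the labels do not say to what. The labels name no genetic change, so every group of a line shares its background.

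A MYC protein binds DNA only as a pair with MAX, at the E-box sequence CACGTG and its variants, and raises transcription of genes for growth and ribosome production. MXD proteins, MXI1 and MNT compete for the same MAX molecules and bring the SIN3 and histone deacetylase corepressor to the same sites, and MGA joins MAX to a polycomb repressor complex. MYC messenger RNA is very short-lived, and in myeloma the gene is often placed next to strong enhancers by chromosome rearrangement.

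The label of 1 line did not match its markers, which bears on each comparison of the lines. Of 10 plasma cell marker genes in the tables, 9 stood at or above 10 FPKM throughout the AMO1 libraries and 1 throughout the libraries labelled XG1. Their summed level was 4808 to 7249 FPKM in AMO1 and 44.4 to 75.9 FPKM in XG1. IRF4, a transcription factor that myeloma cells depend on, was at 18.6 to 34.2 FPKM in AMO1 and at most 0.341 FPKM in XG1. A list of 12 erythroid genes summed to 3523 to 4211 FPKM in XG1 and 3.74 to 29.4 FPKM in AMO1. Of the 12, 8 stood at or above 10 FPKM throughout XG1 and 0 throughout AMO1. EPOR was not higher in XG1, at 0.629 to 1.67 FPKM against 1.25 to 3.09 FPKM in AMO1. AHSP had a median of 0.110 FPKM in XG1. FPKM scales a gene's fragments by transcript length and by the library's total. Between 9284 and 10571 genes per library reached 1 FPKM. The read depth of the libraries is unknown because no counts were used here. In 3′ end libraries the read number does not follow transcript length, so levels below are compared within a gene and not between members.

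Of the members, 9 reached a mean of 1 FPKM in at least 1 group and were tested. MYCN, the neuronal MYC paralogue, was the exception. It was at 0.0720 to 0.129 FPKM in all 18 libraries, 0.908 to 0.986 of the commonest low value of each library, so its level was at the floor in every group. MYCL, MNT and MGA lay around the cut of 1 FPKM, with 13, 15 and 14 of 18 libraries at 1 FPKM or more. In 3′ end data that does not rank their abundance against other members. The other 6 were at 1 FPKM or more in every library. The log2 changes below are on the log2(FPKM + 1) scale, which understates the change of low genes, and adjusted p values are from limma over all 12204 genes tested.

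Promoter windows of 9 members, MYCN included, were searched for the E-box CACGTG, a palindrome that reads the same on both strands. The search covered the 250 bases before each RefSeq start on GRCh38.p14. MYC itself was not searched. For MXD3, which has 1 start, 0 transcripts of the GENCODE annotation held bases just after that start, so its window is less certain. The E-box was in 2 of the 14 windows searched, and in 2228 of all 35116 RefSeq windows of that length (6.34%). The windows with it were those of MXD4, where its first base lay 238 bases before the start, and of MNT, where it lay 193 bases before. Both are printed to show where it lies, with the window of MXD1, which was called higher in AMO1 as MXD4 was in XG1 and held no CACGTG. The MXD4 window is chr4:2262110-2262359 on the minus strand, that of MXD1 is chr2:69914859-69915108 on the plus strand, and that of MNT is chr17:2401061-2401310 on the minus strand. All run 5′ to 3′ up to the base before the start, with the E-box in capitals.
MXD4: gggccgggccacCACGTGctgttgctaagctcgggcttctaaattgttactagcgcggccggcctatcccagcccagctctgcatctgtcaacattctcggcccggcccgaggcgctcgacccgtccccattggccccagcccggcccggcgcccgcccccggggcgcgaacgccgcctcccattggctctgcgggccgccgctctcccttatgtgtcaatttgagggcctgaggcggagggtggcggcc
MNT: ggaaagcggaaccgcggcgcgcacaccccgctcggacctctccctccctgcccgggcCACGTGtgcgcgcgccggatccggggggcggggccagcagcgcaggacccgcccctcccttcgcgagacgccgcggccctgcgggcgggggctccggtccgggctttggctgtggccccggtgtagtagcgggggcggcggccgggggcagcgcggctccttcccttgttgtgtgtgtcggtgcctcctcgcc
MXD1: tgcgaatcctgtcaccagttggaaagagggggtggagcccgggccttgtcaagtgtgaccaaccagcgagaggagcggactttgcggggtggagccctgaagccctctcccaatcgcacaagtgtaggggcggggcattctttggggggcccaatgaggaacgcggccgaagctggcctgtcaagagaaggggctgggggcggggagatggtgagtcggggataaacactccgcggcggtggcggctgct
A match describes these letters and shows no binding, and its absence from a window says only that the letters were not there.

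MYC fell in both lines at 1000 nM. In the libraries labelled XG1 it was at 77.9, 62.1 and 37.1 FPKM in DMSO, at 26.7, 26.4 and 26.3 FPKM at 100 nM and at 20.6, 9.52 and 17.4 FPKM at 1000 nM. In AMO1 it was at 30.4, 32.0 and 62.4 FPKM in DMSO, at 23.99, 19.3 and 23.9 FPKM at 100 nM and at 10.6, 14.5 and 12.3 FPKM at 1000 nM. In each line every library of a dose lay below every DMSO library, and every 1000 nM library lay below every 100 nM library. The mean at 1000 nM was 26.8% of the DMSO mean in XG1 and 30.0% in AMO1. At 1000 nM the log2 change was -1.84 ± 0.29 (SE, n = 3 and 3, adjusted p = 4.10e-04) in XG1 and -1.59 ± 0.29 (adjusted p = 0.00124) in AMO1. Of all tested genes, 0.574% in XG1 and 0.795% in AMO1 had a lower change than MYC. In all 28 alternative settings both calls held, with adjusted p up to 0.0181 and 0.0113. In a lysate of many cells, fewer cells that make a transcript and less of it per cell cannot be told apart, here or for any other member.

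At 100 nM the evidence on MYC was thinner. The mean was 44.8% of DMSO in XG1, with a log2 change of -1.06 ± 0.29 (adjusted p = 0.0341). That call ended with no filter on low genes, without DMSO replicate 1 or 2, and without any of the 100 nM replicates (adjusted p up to 0.146). In AMO1 the mean was 53.8% of DMSO and the change of -0.79 ± 0.29 was not called (adjusted p = 0.172). The DMSO libraries were spread widely. AMO1 DMSO replicate 3, at 62.4 FPKM, was far above the other two at 30.4 and 32.0 FPKM, and without it the 100 nM change was -0.47 (adjusted p = 0.332).

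Ordered by mean, MYC was highest in XG1 DMSO (59.0 ± 20.6 FPKM, SD, n = 3), then in AMO1 DMSO (41.6 ± 18.01), XG1 at 100 nM (26.5 ± 0.196), AMO1 at 100 nM (22.4 ± 2.70), XG1 at 1000 nM (15.8 ± 5.69) and AMO1 at 1000 nM (12.5 ± 1.96). Libraries of neighbours in this order overlapped between the lines in DMSO, between AMO1 at 100 nM and XG1 at 1000 nM, and between the lines at 1000 nM.

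MYCL, a paralogue of MYC first found in small cell lung cancer, showed no call with the inhibitor. It was at 1.16, 1.22 and 0.497 FPKM in XG1 DMSO, at 1.07, 1.497 and 0.697 FPKM at 100 nM and at 0.225, 0.422 and 0.482 FPKM at 1000 nM. The 1000 nM libraries were the lowest of XG1 and all lay below the DMSO libraries, with a log2 change of -0.49 ± 0.20 (adjusted p = 0.0886). A pseudocount of 0.1 (-1.11, adjusted p = 0.0421) or leaving out XG1 DMSO replicate 3 (-0.68, adjusted p = 0.0290) made this a call. In AMO1 the groups overlapped, at 1.34, 1.72 and 1.15 FPKM in DMSO, 1.74, 1.15 and 2.28 FPKM at 100 nM and 1.30, 1.30 and 1.5 FPKM at 1000 nM. The AMO1 change at 1000 nM was -0.02 ± 0.20, and it was above 0 once libraries were centred or quantile normalized.

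**Figure D1:**
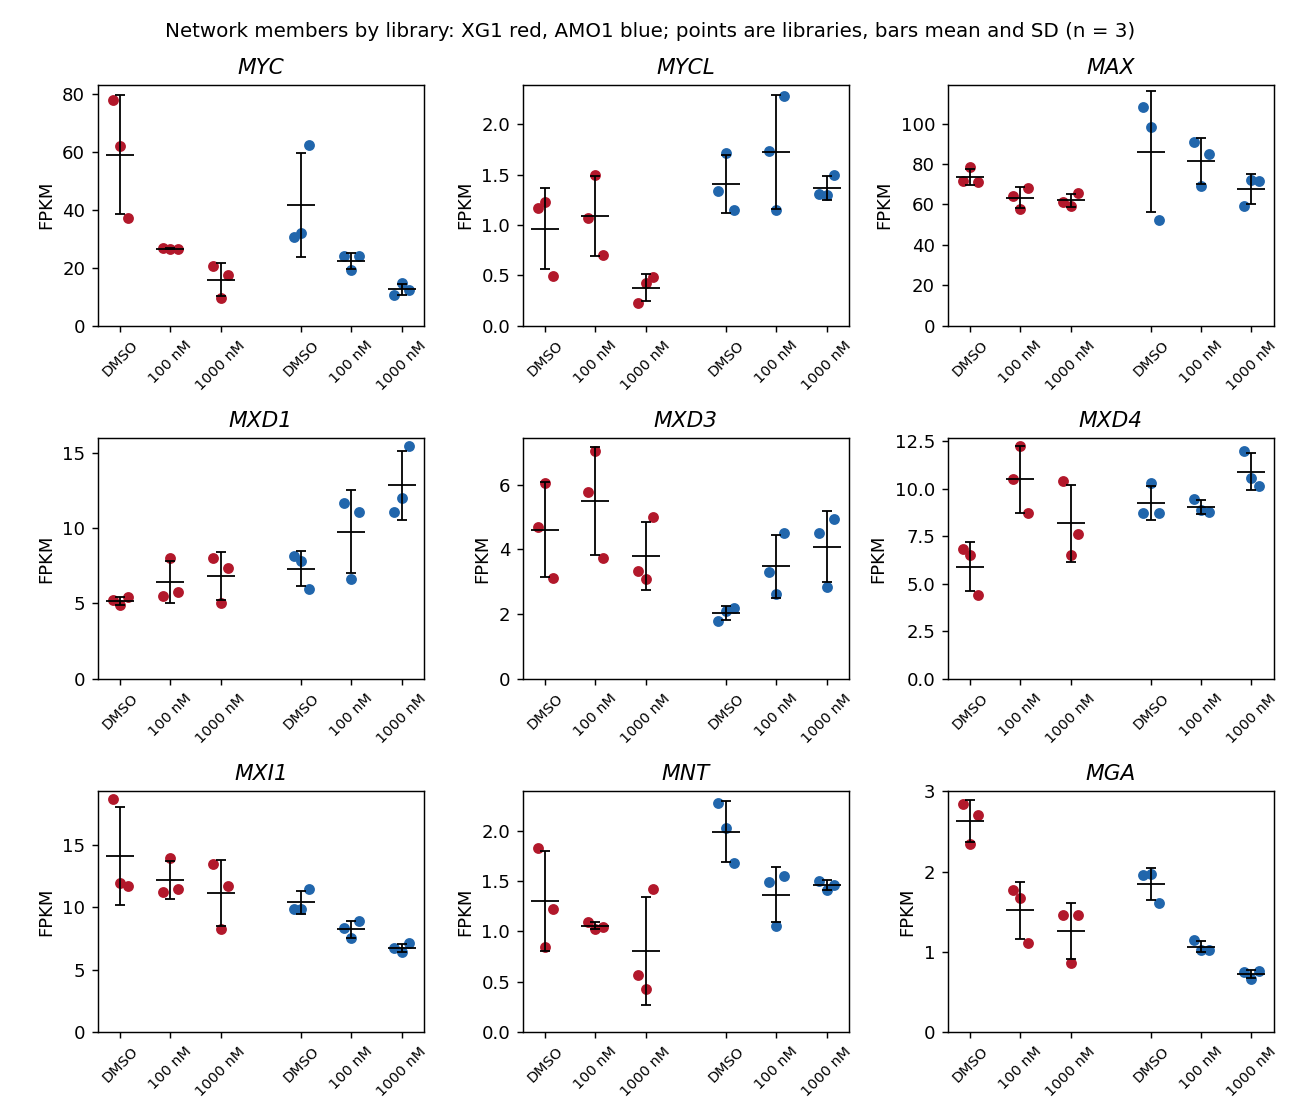
Level in FPKM (y axis, linear from 0) of the 9 tested members in each library, by treatment (x axis); red points are libraries labelled XG1, blue points AMO1, long bars the mean and short bars the SD of 3 libraries. The means of MYC, MGA, MAX and MXI1 are lower and those of MXD1 higher at each higher dose in both lines, and the low MAX and high MYC points of AMO1 DMSO belong to replicate 3.

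MAX, the shared partner, was not called at either dose. It was at 71.6, 78.4 and 71.0 FPKM in XG1 DMSO, 64.2, 57.7 and 68.3 FPKM at 100 nM and 61.1, 59.3 and 65.4 FPKM at 1000 nM. Each XG1 library with inhibitor was thus below each DMSO library, by a margin that the test over all libraries did not call. The log2 changes were -0.22 ± 0.20 (adjusted p = 0.610) and -0.25 ± 0.20 (adjusted p = 0.440). AMO1 libraries were at 108, 98.2 and 52.1 FPKM in DMSO, 91.1, 69.0 and 84.9 FPKM at 100 nM and 59.2, 72.3 and 71.8 FPKM at 1000 nM. The DMSO value farthest from the others was that of replicate 3, the lowest MAX value of all 18 libraries and the highest MYC value of AMO1. Without it, MAX at 1000 nM was called lower in AMO1 (-0.60, adjusted p = 0.00306), against -0.28 ± 0.20 (adjusted p = 0.379) with it.

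The repressors that compete for MAX did not move as 1 group. MXD1, which is induced when many cell types leave the cycle and differentiate, rose in AMO1 at 1000 nM. It was at 8.16, 7.81 and 5.96 FPKM in AMO1 DMSO, 11.6, 6.59 and 11.04 FPKM at 100 nM and 11.1, 12.0 and 15.4 FPKM at 1000 nM. All 1000 nM libraries were above all DMSO libraries, while those at 100 nM overlapped them. The change was 0.35 ± 0.21 (adjusted p = 0.471) at 100 nM and 0.73 ± 0.21 (adjusted p = 0.0223) at 1000 nM. The latter call ended in 5 of 28 alternatives (no filter, the replicate block, without DMSO replicate 3, without 1000 nM replicate 2 or 3), with adjusted p up to 0.0990. In XG1, MXD1 was at 5.20, 4.91 and 5.42 FPKM in DMSO, 5.47, 8.04 and 5.75 FPKM at 100 nM and 8.03, 5.06 and 7.37 FPKM at 1000 nM. Replicate 2 at 1000 nM lay within the DMSO range and the change of 0.32 ± 0.21 was not called (adjusted p = 0.332).

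MXD3, a family member described in dividing cells, differed between the lines before treatment. It was at 1.78, 2.11 and 2.18 FPKM in AMO1 DMSO, 3.30, 2.61 and 4.51 FPKM at 100 nM and 4.50, 2.83 and 4.93 FPKM at 1000 nM. Every AMO1 library with inhibitor was above every DMSO library. The change was 0.55 ± 0.24 (adjusted p = 0.281) at 100 nM and 0.73 ± 0.24 (adjusted p = 0.0441) at 1000 nM, and the latter call ended in 13 of 28 alternatives (adjusted p up to 0.151). Among these were leaving out any DMSO library of AMO1, or 1000 nM replicate 1 or 3. In XG1 it was at 4.69, 6.04 and 3.10 FPKM in DMSO, 5.76, 7.03 and 3.72 FPKM at 100 nM and 3.33, 3.07 and 4.99 FPKM at 1000 nM. Those groups overlapped, and the 1000 nM change was -0.21 ± 0.24 (adjusted p = 0.614).

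MXD4, whose promoter window above holds an E-box, rose in XG1 at the lower dose. It was at 6.81, 6.50 and 4.41 FPKM in XG1 DMSO, 10.5, 12.3 and 8.73 FPKM at 100 nM and 10.4, 6.50 and 7.60 FPKM at 1000 nM. All 100 nM libraries lay above all DMSO libraries. The change was 0.74 ± 0.18 (adjusted p = 0.0177) at 100 nM and 0.41 ± 0.18 (adjusted p = 0.134) at 1000 nM. The 100 nM call ended without DMSO replicate 3 or without 100 nM replicate 1 or 2 (adjusted p up to 0.0978). The AMO1 libraries held 8.73, 10.3 and 8.74 FPKM in DMSO, 9.47, 8.90 and 8.77 FPKM at 100 nM and 12.0, 10.6 and 10.1 FPKM at 1000 nM. Both doses overlapped DMSO, while all 1000 nM libraries lay above all 100 nM libraries. The changes from DMSO were -0.03 ± 0.18 and 0.22 ± 0.18 (adjusted p = 0.987 and 0.481).

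MXI1, also called MXD2, moved the other way. AMO1 libraries were at 9.88, 9.91 and 11.5 FPKM in DMSO, 8.32, 7.51 and 8.90 FPKM at 100 nM and 6.72, 6.42 and 7.11 FPKM at 1000 nM. The 3 groups did not overlap and each dose was below the last. The change was -0.31 ± 0.19 (adjusted p = 0.470) at 100 nM and -0.56 ± 0.19 (adjusted p = 0.0451) at 1000 nM. That call sat close to the threshold and ended in 16 of 28 alternatives (adjusted p up to 0.280), among them leaving out any DMSO or 1000 nM library of AMO1. In XG1 the libraries were at 18.7, 12.0 and 11.7 FPKM in DMSO, 11.2, 13.99 and 11.5 FPKM at 100 nM and 13.5, 8.25 and 11.7 FPKM at 1000 nM. They overlapped, and the 1000 nM change was -0.31 ± 0.19 (adjusted p = 0.274).

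MNT, a widely expressed MAX partner that represses MYC target sites in resting and dividing cells, was not called. It was at 1.83, 0.846 and 1.22 FPKM in XG1 DMSO, 1.09, 1.02 and 1.05 FPKM at 100 nM and 0.564, 0.430 and 1.42 FPKM at 1000 nM. In AMO1 it was at 2.27, 2.02 and 1.68 FPKM in DMSO, 1.49, 1.05 and 1.55 FPKM at 100 nM and 1.505, 1.41 and 1.46 FPKM at 1000 nM. Each AMO1 library with inhibitor was below each DMSO library, while the XG1 groups overlapped. The 1000 nM changes were -0.37 ± 0.19 (adjusted p = 0.209) in XG1 and -0.28 ± 0.19 (adjusted p = 0.373) in AMO1. Without XG1 1000 nM replicate 3, the highest of its group, the XG1 change was -0.60 and called (adjusted p = 0.0281).

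MGA, the largest member, which carries a second DNA-binding domain of the T-box type, was the other one besides MYC to fall in both lines. It was at 2.84, 2.34 and 2.70 FPKM in XG1 DMSO, 1.77, 1.67 and 1.11 FPKM at 100 nM and 1.45, 0.854 and 1.46 FPKM at 1000 nM. In AMO1 it was at 1.96, 1.97 and 1.61 FPKM in DMSO, 1.15, 1.02 and 1.02 FPKM at 100 nM and 0.749, 0.658 and 0.758 FPKM at 1000 nM. No library with inhibitor reached the lowest DMSO library of its line. The change at 1000 nM was -0.70 ± 0.16 (adjusted p = 0.00504) in XG1 and -0.72 ± 0.16 (adjusted p = 0.00388) in AMO1, to 47.8% and 39.1% of the DMSO means. The AMO1 call held in all 27 alternatives that tested MGA, and the XG1 call ended in 1, with only the groups compared in the fit (adjusted p = 0.0577). At 100 nM it was called in XG1 (-0.54 ± 0.16, adjusted p = 0.0472), a call that ended in 19 of 27 alternatives (adjusted p up to 0.200), and not in AMO1 (-0.46 ± 0.16, adjusted p = 0.140).

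The other members were ordered differently by group mean. MGA was highest in XG1 DMSO, then AMO1 DMSO, XG1 at 100 nM, XG1 at 1000 nM, AMO1 at 100 nM and AMO1 at 1000 nM, and only the first and last of these stood clear of their neighbours. MXI1 ran from XG1 DMSO through XG1 at 100 and 1000 nM to AMO1 DMSO, which overlapped, and then AMO1 at 100 nM and at 1000 nM, which did not. MXD1 ran from AMO1 at 1000 nM through AMO1 at 100 nM, AMO1 DMSO and XG1 at 1000 nM to XG1 at 100 nM, and XG1 DMSO lay clear below. MXD3 ran from XG1 at 100 nM through XG1 DMSO, AMO1 at 1000 nM and XG1 at 1000 nM to AMO1 at 100 nM, with AMO1 DMSO clear below. MNT was highest in AMO1 DMSO, clear of AMO1 at 1000 nM, followed with overlap by AMO1 at 100 nM and by XG1 in DMSO, at 100 nM and at 1000 nM. MYCL was lowest in XG1 at 1000 nM, clear of XG1 DMSO, and overlapped between the other neighbours. For MAX and MXD4 all neighbours overlapped.

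**Figure D2:**
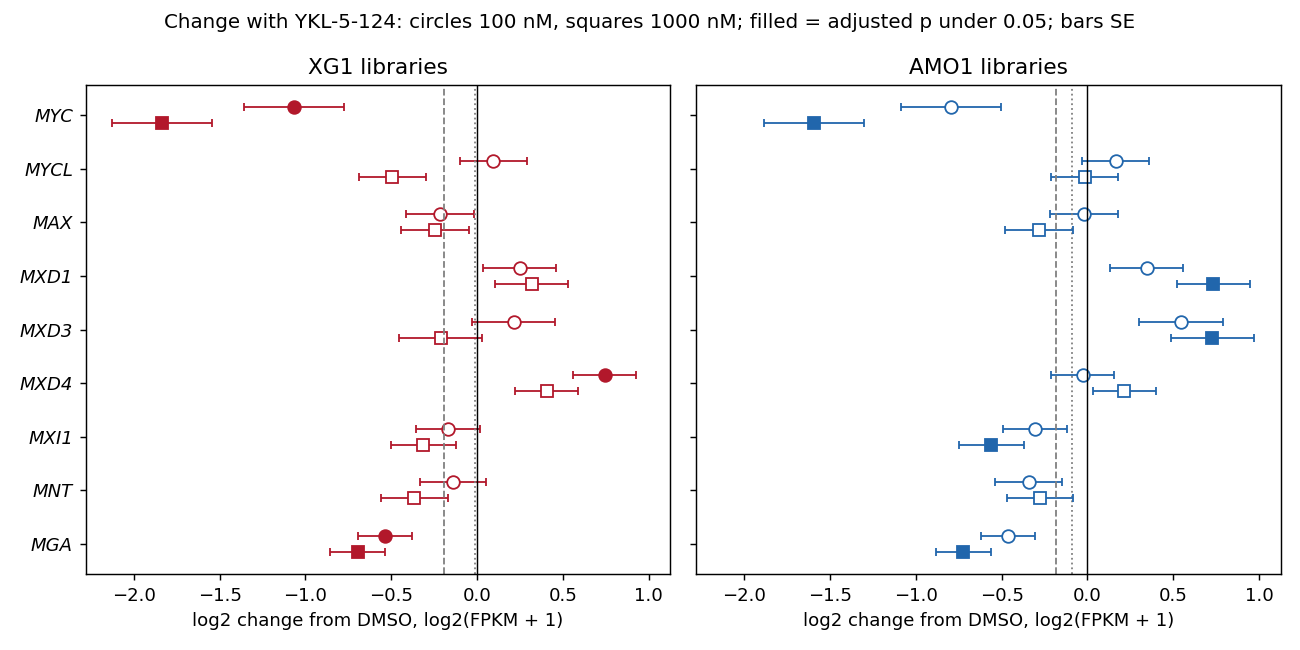
Log2 change from DMSO (x axis, on log2(FPKM + 1)) of the 9 tested members (y axis) in the libraries labelled XG1 (left) and AMO1 (right); circles are 100 nM, squares 1000 nM, filled symbols have an adjusted p under 0.05, bars are the SE, and the dotted and dashed grey lines mark the median of all tested genes at 100 and 1000 nM. MYC lies farthest left at both doses in both lines, MGA follows at 1000 nM, and MXD1 and MXD4 lie to the right of the dashed line in both lines.

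Read against all genes, the members' counts differed in weight. In XG1 at 100 nM, 3 of 9 tested members were called, MXD4 higher and MYC and MGA lower, where 6.61% of all tested genes were called. In XG1 at 1000 nM, MYC and MGA were called lower, 2 of 9, against a background of 17.6%. In AMO1 at 100 nM none of the 9 was called, against a background of 2.2%. There 3 members had an unadjusted p under 0.05 in limma. The backgrounds count adjusted p values, and the all-gene share at the unadjusted threshold is not given. In AMO1 at 1000 nM 5 of 9 were called, MXD1 and MXD3 higher and MYC, MXI1 and MGA lower, against a background of 17.1%. Both doses of a line share its DMSO libraries, so the doses are not independent of each other. Across the lines, which share none, 8 of 9 members had the same sign at 100 nM and 8 of 9 at 1000 nM, where 61.96% and 73.49% of all tested genes did. MXD4 was the exception at 100 nM and MXD3 at 1000 nM. The signs include those of small uncalled changes and depended on scaling. After median centring the exceptions were MAX at 100 nM, and MYCL and MNT at 1000 nM.

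At 1000 nM most called genes were lower, which shifts what a change of 0 stands for. The median log2 change of all tested genes was -0.19 in XG1 and -0.18 in AMO1, and the members' medians were -0.31 and -0.28. Called genes were 232 higher and 1920 lower in XG1, and 217 higher and 1874 lower in AMO1. With libraries centred on their medians the split was 969 higher and 969 lower in XG1, and 1012 and 815 in AMO1. After quantile normalization it was 1174 and 1209, and 861 and 1011. At 100 nM in AMO1 the median was -0.09, and the split of 53 higher and 215 lower became 289 and 188 after centring and 205 and 254 after quantile normalization. The shift touched the members with small changes. Relative to the median of all genes, MYC changed by -1.64 and -1.41, MGA by -0.50 and -0.54, and MXD4 by 0.60 and 0.40 in XG1 and AMO1.

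With such scaling MXD1 and MXD4 were called higher at 1000 nM in both lines. In XG1 MXD1 was at 0.58 after centring (adjusted p = 0.0103) and 0.63 after quantile normalization (adjusted p = 0.00532), and MXD4 at 0.66 (adjusted p = 0.00455) and 0.73 (adjusted p = 0.00275). In AMO1 MXD4 was at 0.51 (adjusted p = 0.0234) and 0.47 (adjusted p = 0.0436). MXI1 in AMO1 was at -0.27 and -0.26 and no longer called (adjusted p = 0.227 and 0.280). MYC and MGA were called lower under each of these scalings. After centring MAX was at 0.012 in XG1 and 0.014 in AMO1, against -0.25 and -0.28 as deposited. Spike-in RNAs gave nearly the deposited scale. Median deviations of 44 spike-ins lay between -0.08 and 0.07 log2 over the 18 libraries. Scaled to them, the 1000 nM median of all genes was -0.18 in XG1 and -0.19 in AMO1, against -0.19 and -0.18 as deposited. If the deposited values were already scaled to the spike-ins, this setting could change little, and whether they were was not tested.

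**Figure D3:**
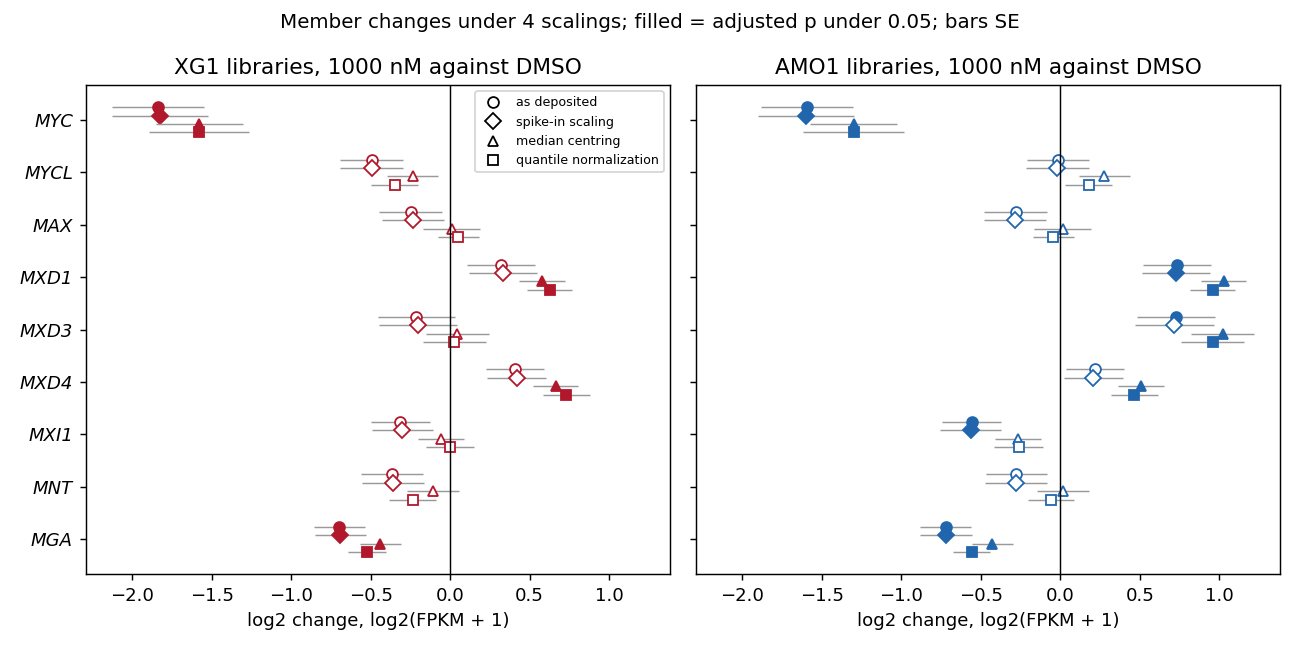
Log2 change at 1000 nM (x axis, on log2(FPKM + 1)) of the 9 tested members (y axis) under 4 scalings of the libraries, in XG1 (left) and AMO1 (right); symbol shape marks the scaling, filled symbols have an adjusted p under 0.05 and bars are the SE. MYC and MGA stay filled and left of 0 under all 4, MXD1 and MXD4 are filled in both lines after centring and quantile normalization, and MAX moves to about 0 after centring.

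**Figure D4:**
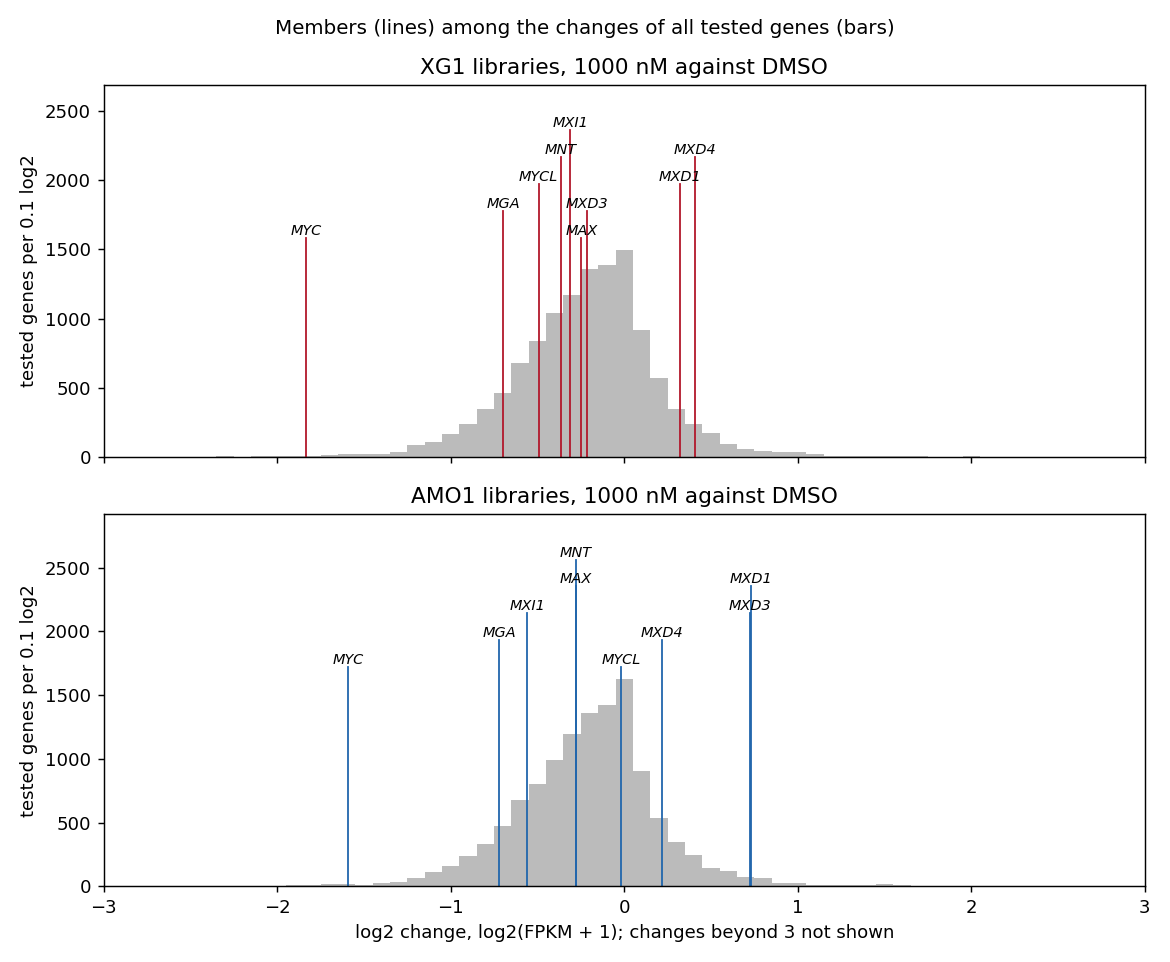
Number of tested genes (y axis) per 0.1 of log2 change at 1000 nM (x axis, on log2(FPKM + 1)) as grey bars, with a vertical line for each member, in XG1 (top) and AMO1 (bottom). MYC lies in the lower tail, where 0.574% and 0.795% of genes had a lower change, MXD1 and MXD4 lie right of the bulk in XG1, and MXD1 and MXD3 do in AMO1.

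Between the doses no member was called, where 0.139% of all tested genes were in XG1 and 0.18% in AMO1. At an unadjusted p under 0.05 in limma, for which no all-gene share is given, 2 of the 9 passed in XG1. They were MYC (-0.77 ± 0.29, adjusted p = 0.212) and MYCL (-0.59 ± 0.20, adjusted p = 0.163). In AMO1 it was MYC alone (-0.80 ± 0.29, adjusted p = 0.306). The 95% intervals of these MYC differences ran from -1.38 to -0.16 in XG1 and from -1.41 to -0.19 in AMO1. When only the AMO1 groups were fitted, with the same estimate of -0.80, MYC was called (adjusted p = 0.0483).

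The lines' responses were compared as the change in XG1 minus that in AMO1. At 100 nM none of the 9 members differed at the threshold, against 0.156% of all tested genes. At 1000 nM the count was again 0, against 0.68%. At each dose 1 member had an unadjusted p under 0.05 in limma, for which no all-gene share is given. For MYC the differences were -0.27 (95% interval -1.13 to 0.59, adjusted p = 0.906) and -0.24 (-1.10 to 0.62, adjusted p = 0.917). MXD4 had the widest gap at 100 nM, 0.77 (0.23 to 1.31, adjusted p = 0.298). MXD3 had it at 1000 nM, -0.94 (-1.66 to -0.22, adjusted p = 0.284). So the rise of MXD4 at 100 nM in XG1 and of MXD3 at 1000 nM in AMO1 was not shown to differ between the lines. Adjusted p values of the other members ran from 0.837 to 0.970 at 100 nM and from 0.628 to 0.990 at 1000 nM.

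Scaling changed the all-gene counts of these comparisons. Called genes were 4 higher and 18 lower between the AMO1 doses (6 and 14 after centring, 11 and 11 after quantile normalization) and 11 higher and 8 lower for the responses at 100 nM (13 and 53, 33 and 43).

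In DMSO alone 2 of 9 members differed between the lines, where 62.7% of all tested genes did. The members' count depended on scaling, with 5 of 9 called after centring and 7 of 9 after quantile normalization. Of all 12204 tested genes, 3989 were called higher and 4228 lower after centring, and 4236 and 3970 after quantile normalization. MXD3 was higher in XG1, at 4.61 ± 1.47 against 2.02 ± 0.214 FPKM (SD, n = 3), a log2 difference of 0.86 ± 0.24 (adjusted p = 0.00439). MXD4 was lower in XG1, at 5.91 ± 1.31 against 9.26 ± 0.904 FPKM (-0.59 ± 0.18, adjusted p = 0.00876). Without XG1 DMSO replicate 3 the MXD4 call ended (-0.42, adjusted p = 0.0659). MYC differed by 0.51 ± 0.29 and was not called (adjusted p = 0.135). Quantile normalization (0.78, adjusted p = 0.0388) made it a call, as did leaving out replicate 3 of the XG1 controls (0.81, adjusted p = 0.0216) or of the AMO1 controls (0.83, adjusted p = 0.0149). The plasma cell and erythroid marker sums given above differ between the same libraries, and their part in these differences was not tested. Within XG1, the plasma cell sum was 72.1 to 75.9 FPKM in DMSO and 44.4 to 55.2 FPKM at 1000 nM, and a sum of 5 myeloid markers was 31.6 to 37.6 and 19.5 to 26.8 FPKM. The erythroid sum was 3988 to 4211 and 3523 to 4161 FPKM, and a sum of 5 stromal and epithelial markers was 95.6 to 103.8 and 78.6 to 92.1 FPKM. At 100 nM, the dose at which MXD4, MYC and MGA were called in XG1, the plasma cell sum was 45.4 to 66.4 FPKM and the erythroid sum 3820 to 3925 FPKM, both below all DMSO values. Their part in the members' changes was not tested either.

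Some genes followed a member's pattern closely over the 18 libraries once the mean of each line was subtracted. Those nearest to MYC were MANF (Pearson r = 0.96), a protein secreted from the endoplasmic reticulum, CPOX (0.95), an enzyme of heme synthesis, PTS (0.95), an enzyme of tetrahydrobiopterin synthesis, LSM8 (0.94), a U6 RNA-binding protein, and NCAPH (0.94), a condensin subunit. Nearest to MGA were SNHG3, ZFP91 and NAA15 (each 0.96). MXD1 was followed by STX16 and ZNF655 (each 0.92) and IP6K2 (0.90), MXD4 by FAM229A (0.90), ATXN7 (0.89) and TADA2B (0.88). MXI1 was nearest to ANAPC13, PCNXL4 and LIN7C (each 0.92), and genes near MXD3 were HP1BP3 (0.84) and TRIOBP (0.83). They were picked for the highest r among all tested genes, share libraries and treatment groups with the member, and serve as a description.

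Genes known to act with the network were read from lists written with earlier results of these data known. MLX, a MAX-like partner that some MXD proteins and MNT also bind, and the Mondo proteins MLXIP and MLXIPL form a parallel arm that senses sugar, with TXNIP and ARRDC4 as targets. The counts below stand beside shares of all tested genes called of 6.61% in XG1 and 2.2% in AMO1 at 100 nM, and of 17.6% and 17.1% at 1000 nM. After centring at 1000 nM, 969 of all 12204 tested genes were called higher and 969 lower in XG1, and 1012 and 815 in AMO1. After quantile normalization these were 1174 and 1209, and 861 and 1011. Of the 5 genes of the MLX and Mondo arm 3 were tested, and TXNIP, an inhibitor of glucose uptake, rose at each dose in both lines. It was at 20.9 ± 0.916 FPKM in XG1 DMSO, 37.1 ± 2.12 at 100 nM and 33.0 ± 4.42 at 1000 nM (log2 changes 0.80 ± 0.17, adjusted p = 0.00875, and 0.63 ± 0.17, adjusted p = 0.0175). In AMO1 it was at 69.2 ± 8.24, 121.7 ± 32.7 and 140.5 ± 21.3 FPKM (0.78 ± 0.17, adjusted p = 0.0204, and 1.01 ± 0.17, adjusted p = 7.01e-04). The XG1 100 nM and AMO1 1000 nM calls held in all 28 alternatives. That at XG1 1000 nM ended without DMSO replicate 1 or 1000 nM replicate 3 (adjusted p up to 0.0712), and that at AMO1 100 nM ended in 6 of 28. MLX was called lower in XG1 at 1000 nM (-0.44 ± 0.15, adjusted p = 0.0438), a call that ended in 18 of 28 alternatives.

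Among 14 tested cofactors of MYC and MAX, 1 was called lower at 100 nM in each line, and 6 in XG1 and 5 in AMO1 at 1000 nM, with none higher, against 17.6% and 17.1% of all genes. The count in XG1 was 2 without DMSO replicate 1 or 2, and that in AMO1 was 2 or 3 without DMSO replicate 1 or 2 or 1000 nM replicate 1 or 2. TFAP4, a basic helix-loop-helix factor and MYC target, was the 1 at 100 nM (-1.06 ± 0.16 and -0.85 ± 0.16, adjusted p = 5.40e-04 and 0.00793) and fell further at 1000 nM, from 15.4 ± 1.41 to 5.11 ± 0.791 FPKM in XG1 and from 23.5 ± 2.62 to 9.71 ± 0.246 FPKM in AMO1. ACTL6A, a chromatin remodelling subunit, fell at 1000 nM, with log2 changes of -0.99 in XG1 and -0.72 in AMO1 (adjusted p = 0.00289 and 0.0232). After centring the counts at 1000 nM were 1 higher and 2 lower in XG1, and 2 lower in AMO1. The AMO1 call of ACTL6A was among those lost.

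Of the 14 genes of the SIN3 and histone deacetylase corepressor that MXD proteins recruit, SAP30 alone was called at 1000 nM, lower in XG1 (-0.99 ± 0.26, adjusted p = 0.0123) and AMO1 (-0.81 ± 0.26, adjusted p = 0.0362). Both SAP30 calls ended after quantile normalization, where 3 others of the list in XG1 and 1 in AMO1 were called higher. After centring the list had 1 higher and 1 lower in XG1, and 1 higher in AMO1. At 100 nM none of the 14 was called, with 1 unadjusted p under 0.05 in XG1 and 0 in AMO1. Their median change at 1000 nM, -0.20 and -0.14, was close to that of all genes and above 0 after centring or quantile normalization. SIN3A, the scaffold, was at 3.53 ± 0.161 FPKM in XG1 DMSO and 2.63 ± 0.748 at 1000 nM (adjusted p = 0.204), and at 1.91 ± 0.602 and 1.95 ± 0.319 FPKM in AMO1 (adjusted p = 0.951).

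The polycomb complex that holds MGA, called PRC1.6, also held genes that fell. Of 13 tested subunits and partners, 4 were called lower in XG1 and 6 in AMO1 at 1000 nM, with none higher and medians of -0.38 and -0.43, against 17.6% and 17.1% of all genes. The XG1 count was 2 without DMSO replicate 1 or 2 and 1 without 1000 nM replicate 2. The AMO1 count was 3 without DMSO replicate 1 or 2 or 1000 nM replicate 1, and 2 without 1000 nM replicate 2. E2F6, the complex's E2F-type DNA-binding factor, fell from 2.75 ± 0.537 to 1.21 ± 0.708 FPKM in XG1 (-0.80 ± 0.25, adjusted p = 0.0306) and from 9.27 ± 3.08 to 3.48 ± 0.793 FPKM in AMO1 (-1.16 ± 0.25, adjusted p = 0.00328). PCGF6, its defining ring finger subunit, fell too, at -1.17 in XG1 and -0.81 in AMO1 (adjusted p = 0.00269 and 0.0269), as did RING1, a ubiquitin ligase subunit, at -0.81 and -0.92 (adjusted p = 0.0220 and 0.0101). Of these 6 calls, those of E2F6 in AMO1 and of PCGF6 in XG1 held in all 28 alternatives. After centring the counts at 1000 nM were 1 higher and 2 lower in XG1, and 3 lower in AMO1. After quantile normalization they were 3 higher and 2 lower, and 3 lower. At 100 nM E2F6 was called lower in AMO1 (-1.11 ± 0.25, adjusted p = 0.0204), a call that ended in 7 of 28 alternatives (adjusted p up to 0.131). None was called in XG1 at that dose, where 2 had an unadjusted p under 0.05 in limma. HDAC1, HDAC2 and WDR5 stand in 2 of these lists each.

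**Figure D5:**
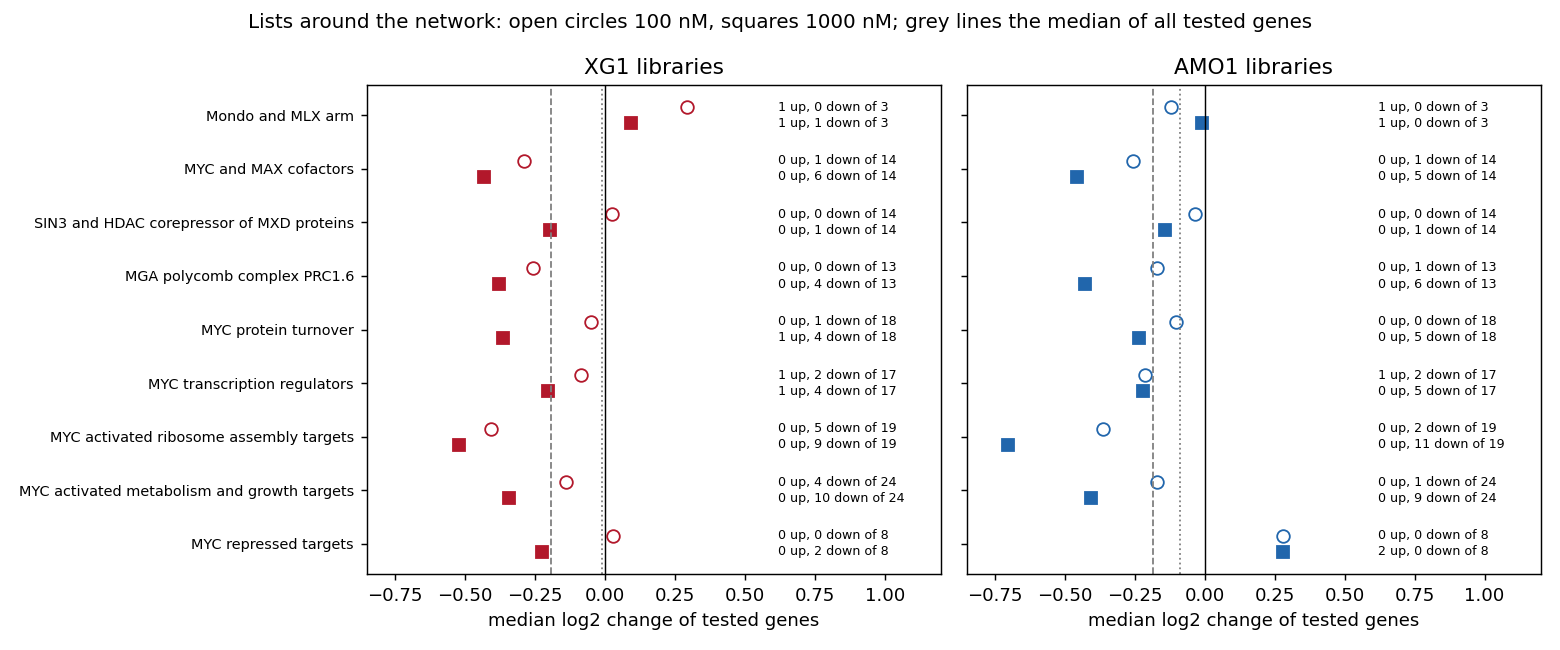
Median log2 change from DMSO (x axis, on log2(FPKM + 1)) of the tested genes of 9 lists around the network (y axis) in XG1 (left) and AMO1 (right); open circles are 100 nM, filled squares 1000 nM, and dotted and dashed grey lines the median of all tested genes at 100 and 1000 nM. The numbers beside the symbols count genes called higher (up) and lower (down) of those tested; the ribosome assembly list lies farthest left at 1000 nM, at -0.52 and -0.70.

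Of 17 tested regulators of MYC transcription, 1 was called higher and 4 lower in XG1 at 1000 nM, and 5 lower in AMO1, against 17.6% and 17.1% of all genes called. After centring 3 were higher and 3 lower in each line, and after quantile normalization 3 and 3 in XG1 and 3 and 4 in AMO1. The count of calls in XG1 was 3 without DMSO replicate 1 or 2, and that in AMO1 was 8 without DMSO replicate 3. FUBP1, which binds a single-stranded element upstream of MYC, fell from 81.7 ± 4.19 to 27.7 ± 5.00 FPKM in XG1 and from 116.8 ± 25.8 to 38.1 ± 0.930 FPKM in AMO1 (log2 changes -1.54 ± 0.18 and -1.56 ± 0.18, adjusted p = 1.08e-05 and 1.23e-05). CTCF, a chromatin boundary factor that binds near MYC, fell as well, at -1.26 and -0.89 (adjusted p = 6.30e-05 and 0.00151). Both genes were also called lower at 100 nM in both lines, with FUBP1 at -1.43 and -0.90. The AMO1 calls at 100 nM ended in 4 of 28 alternatives for FUBP1 and in 19 of 28 for CTCF. BRD2 was called higher at that dose, at 0.52 in XG1 and 0.65 in AMO1 (adjusted p = 0.0447 and 0.0282). Those calls ended in 14 and 8 of 28 alternatives. The list at 100 nM thus had 1 higher and 2 lower in each line, against 6.61% and 2.2% of all genes called. At 1000 nM the gene called higher in XG1 was CCNT1 (0.58 ± 0.19, adjusted p = 0.0360), a call that ended in 8 of 28 alternatives. The median of this list at 1000 nM, -0.20 in XG1 and -0.22 in AMO1, turned to 0.06 and 0.07 after centring. The 17 include IRF4, which passed the filter through AMO1, was at most 0.341 FPKM in XG1 and could hardly be called lower there.

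Of 18 tested genes of MYC protein turnover, 1 was called higher and 4 lower in XG1 at 1000 nM, and 5 lower in AMO1, against 17.6% and 17.1% of all genes called. After centring the split was 1 higher and 3 lower in XG1 and 3 higher and 1 lower in AMO1, and after quantile normalization 3 and 3, and 2 and 2. The count of calls in XG1 was 2 without DMSO replicate 1 and 3 without DMSO replicate 2. In AMO1 it was between 1 and 3 without DMSO replicate 1 or 2 or any 1000 nM library. FBXW7, the ubiquitin ligase subunit that marks MYC for destruction, rose in XG1 from 9.80 ± 2.12 to 18.6 ± 2.06 FPKM (0.87 ± 0.22, adjusted p = 0.00935), a call that ended without DMSO replicate 1 (adjusted p = 0.0649). SKP2, another ligase subunit that acts on MYC, fell in both lines at 1000 nM (-0.72 ± 0.14 and -0.74 ± 0.14, adjusted p = 0.00145 and 0.00117). At 100 nM SKP2 alone was called in XG1 (adjusted p = 0.0364), a call that ended in 10 of 28 alternatives (adjusted p up to 0.151). In AMO1 none was called, and 3 had an unadjusted p under 0.05 in limma.

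Of 19 tested genes that MYC is known to activate for ribosome assembly, 9 in XG1 and 11 in AMO1 were called lower at 1000 nM, against 17.6% and 17.1% of all genes called. At 100 nM 5 in XG1 and 2 in AMO1 were called lower, against 6.61% and 2.2%. None was called higher. At 1000 nM the count was 5 in XG1 without DMSO replicate 1 or 2 or 1000 nM replicate 1, and in AMO1 7 without DMSO replicate 2 and 17 without DMSO replicate 3. At 100 nM the count ran from 2 to 8 in XG1 and from 0 to 10 in AMO1 with 1 library left out, and the highest of each was without AMO1 DMSO replicate 3. The AMO1 count was 0 without DMSO replicate 2 or any 100 nM library. The list medians at 1000 nM were -0.52 and -0.70, against -0.26 and -0.41 after centring and -0.24 and -0.45 after quantile normalization. GNL3, or nucleostemin, fell in XG1 from 18.2 ± 1.23 to 8.19 ± 2.21 FPKM at 100 nM and 6.34 ± 1.17 FPKM at 1000 nM (-1.09 ± 0.19 and -1.40 ± 0.19, adjusted p = 0.00178 and 8.42e-05). PPAN, a factor of large subunit assembly, fell in AMO1 from 38.1 ± 5.63 to 23.2 ± 1.08 and 16.3 ± 1.01 FPKM (-0.68 ± 0.15 and -1.17 ± 0.15, adjusted p = 0.0204 and 5.32e-05). The AMO1 call of PPAN at 100 nM ended in 7 of 28 alternatives (adjusted p up to 0.131), centring and the replicate block among them. PPAN was also called lower in XG1 at 100 nM (-0.76 ± 0.15, adjusted p = 0.00487), a call that held in all 28. NOP16 was called lower at both doses in each line. In XG1 its changes were -0.62 and -0.83 (adjusted p = 0.0446 and 0.00387). In AMO1 they were -0.72 and -1.12 (adjusted p = 0.0424 and 4.06e-04). Its 100 nM calls ended in 16 of 28 alternatives in each line. POLR1B, a subunit of RNA polymerase I, fell in AMO1 at 1000 nM (-1.15 ± 0.21, adjusted p = 8.91e-04). After centring 3 of 19 in XG1 and 6 of 19 in AMO1 were called lower at 1000 nM. None of the 19 was called for a difference between the lines' responses at 100 or 1000 nM, against 0.156% and 0.68% of all genes.

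Of 24 tested MYC-activated genes of metabolism and growth, 10 in XG1 and 9 in AMO1 were called lower at 1000 nM, and 4 and 1 at 100 nM, with none higher. Of all genes 17.6% and 17.1% were called at 1000 nM, and 6.61% and 2.2% at 100 nM. At 1000 nM the XG1 count was 4 without DMSO replicate 1 and 6 without 1000 nM replicate 2, and the AMO1 count was 14 without DMSO replicate 3. At 100 nM it ran from 1 to 7 in XG1 and from 0 to 4 in AMO1 with 1 library left out. EIF4E, the cap-binding translation factor, fell at 1000 nM, at -1.21 in XG1 and -1.27 in AMO1 on the log2 scale (adjusted p = 1.94e-04 and 1.37e-04). HK2, a hexokinase, was at -0.94 and -1.27 (adjusted p = 0.00274 and 2.43e-04). GART, a purine synthesis enzyme, was at -1.05 in XG1 (adjusted p = 3.51e-04), and CAD, a pyrimidine synthesis enzyme, at -1.04 in AMO1 (adjusted p = 1.37e-04). These 6 calls held in all 28 alternatives. None of the 24 was called for a difference between the lines' responses at 100 or 1000 nM, against 0.156% and 0.68% of all genes. After centring the list's counts were 1 higher and 4 lower in XG1 and 5 lower in AMO1 at 1000 nM, and after quantile normalization 3 and 6, and 7 lower.

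Of 12 listed genes that MYC is known to repress 8 were tested, and none was called at 100 nM, with 2 unadjusted p under 0.05 in limma in each line. At 1000 nM, 2 were called higher in AMO1, GADD45A, a stress-induced growth arrest gene (from 12.6 ± 1.51 to 29.6 ± 1.12 FPKM, 1.17 ± 0.26, adjusted p = 0.00455), and NDRG1 (0.72 ± 0.22, adjusted p = 0.0261). The NDRG1 call ended in 7 of 28 alternatives (adjusted p up to 0.103). In XG1, 2 were called lower at 1000 nM, the cell cycle inhibitors CDKN1C (from 23.1 ± 2.05 to 10.6 ± 3.06 FPKM, -1.08 ± 0.21, adjusted p = 0.00140) and CDKN1B (-0.60 ± 0.19, adjusted p = 0.0328). The CDKN1B call ended in 9 of 28 alternatives (adjusted p up to 0.145), among them both scalings and the replicate block. The background was again 17.6% in XG1 and 17.1% in AMO1. GADD45A was at 26.6 ± 5.59 and 16.6 ± 7.74 FPKM in XG1 DMSO and at 1000 nM, a change of -0.74 ± 0.26 that was not called (adjusted p = 0.0577). Its change differed between the lines by -1.91 ± 0.37 (XG1 minus AMO1, adjusted p = 0.0171). After centring 5 of the 8 were called higher in AMO1, and 1 higher and 1 lower in XG1.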

How the data were processed

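Per the labels' protocols, RNA of cells lysed in TRIzol was made into QuantSeq libraries, which read the 3′ ends of polyadenylated transcripts. The deposited values are FPKM made by the authors with HISAT2, Cuffnorm and the genome build hg19, per the submitters' processing notes. The unit was taken from the name of Cuffnorm, since the file headers say only that values are expression. For the gene annotation, tool versions and the use of strand in counting: not given in the sources used here. Reads of overlapping or antisense genes may thus be counted with a member. Depth is unknown, so values carry no counting interval.

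The labels gave each library's group and number. Whether replicates were separate cultures is not stated, so the p values reflect the spread among these libraries, possibly technical. Members were matched by symbol, and 92 spike-in RNAs were left out of the tests. The 12204 genes whose mean reached 1 FPKM in any group were tested on log2(FPKM + 1) with limma 3.58.1, using its trend and robust options, in R 4.3.3 with statmod 1.5.0. All 18 libraries entered 1 fit with 1 mean per group. Tests were two-sided with Benjamini-Hochberg adjustment over all genes tested and a threshold of 0.05, in 9 comparisons, and the fit was tested on simulated data. No library held a value of 0 and no library pair was identical.

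Named were all members and the genes most like a called member (5 for MYC, 3 for others, leaving out small RNA, ribosomal RNA and uncharacterised loci). From each list and dose comparison the rule picked up to 3 called genes per direction with the largest change, and only some of these are named. SIN3A was named outside this rule after its values were seen. A gene the rule picked is not reported here. The members and lists were chosen with earlier results of these data known. Alternatives were pseudocounts of 0.1 and 5, no filter, a minimum mean of 5 FPKM, median centring, quantile normalization, spike-in scaling over the 44 spike-ins that exceeded 3 on the log2 scale throughout, only the groups compared, neither trend nor robust estimation, a replicate block, and leaving out each library in turn. Leaving out a library outside the groups compared cannot move the estimate, only its SE and adjusted p. Promoter windows are from RefSeq for GRCh38.p14, and those of 9 members, all but MYC, were searched.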

Additional observations from a re-analysis of the deposited data

Results flagged for a closer look

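GADD45A, a growth arrest gene among those that MYC is known to repress, changed differently in the lines at 1000 nM. The difference of its changes was -1.91 on the log2 scale (XG1 minus AMO1, SE 0.37, limma adjusted p = 0.0171). It was lower in the mean with the inhibitor in XG1, from 26.6 to 16.6 FPKM, and rose in AMO1, from 12.6 to 29.6 FPKM. The difference kept its direction in all 28 alternatives (-2.21 to -1.51). Its call ended in 5 of them, with no filter, with the replicate block, without XG1 DMSO replicate 1 or 2, and without AMO1 1000 nM replicate 2, with adjusted p up to 0.0794. The marker genes of plasma and erythroid cells differ between the same lines, and their part in this difference was not tested.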

How the results depend on the processing

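Direction and call of MYC at 1000 nM against DMSO held in all 28 alternatives in both lines. The limits are those of 3 libraries a group, unknown depth, and a scale set by the authors. Centring and quantile normalization raised the median change of all genes at 1000 nM. Spike-in scaling left it near the deposited value, at -0.18 in XG1 and -0.19 in AMO1. That setting could change little if the deposited values were already scaled to the spike-ins. No filter on low genes ended the MYC call in XG1 at 100 nM (-1.06, adjusted p = 0.0856), and the fit of only the groups compared called MYC lower between the AMO1 doses (-0.80, adjusted p = 0.0483). Quantile normalization called MYC higher in XG1 than AMO1 in DMSO (0.78). With a minimum mean of 5 FPKM fewer members were tested, MGA not among them. The cause of the other changes was not tested.

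Counts of called members moved as follows. XG1 at 100 nM (3) had 1 with no filter and 0 to 3 without 1 library. XG1 at 1000 nM (2) had 1 with a minimum mean of 5 or only the groups compared, and 4 after median centring or quantile normalization. Under those scalings all genes called were 969 higher and 969 lower, and 1174 and 1209. AMO1 at 100 nM (0) had 2 after centring, where 289 of all genes were called higher and 188 lower. AMO1 at 1000 nM (5) had 3 with a pseudocount of 5, 2 with no filter, 2 with the replicate block and 2 to 5 without 1 library. AMO1 at 1000 against 100 nM (0) had 1 with only the groups compared. The lines in DMSO (2) had 5 after centring, 7 after quantile normalization and 2 to 5 without 1 library. All genes called there were 3989 higher and 4228 lower after centring, and 4236 and 3970 after quantile normalization.

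Small uncalled changes turned sign with scaling. After median centring MAX was at 0.012 and MXD3 at 0.046 in XG1 at 1000 nM, MAX at 0.16 and MXD4 at 0.15 in AMO1 at 100 nM, and MYCL at 0.28, MAX at 0.014 and MNT at 0.016 in AMO1 at 1000 nM. After quantile normalization MAX was at 0.052 and MXD3 at 0.026 in XG1 at 1000 nM, MAX at 0.023 and MXD4 at 0.11 in AMO1 at 100 nM, MYCL at 0.18 in AMO1 at 1000 nM, and MAX at 0.20 between the lines in DMSO.

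Without 1 library in turn MYC ran from -1.36 to -0.84 in XG1 at 100 nM, from 0.28 to 0.83 between the lines in DMSO, and from -0.57 to 0.064 for the difference of the lines' responses at 1000 nM. In XG1 at 100 nM MYCL ran from -0.089 to 0.24, MXI1 from -0.28 to 0.036 and MNT from -0.29 to 0.021. In AMO1 MAX ran from -0.34 to 0.18 and MXD4 from -0.063 to 0.045 at 100 nM, and MYCL from -0.092 to 0.076 at 1000 nM. Between the lines in DMSO MAX ran from -0.48 to 0.039.

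Replicate numbers did not pair the samples. Over 18 pairs of the same line and number the correlations of deviations lay between -0.12 and 0.09, and 4 of the 18 were the best of their library. The replicate block, which uses up degrees of freedom, left 2 of the 5 member calls in AMO1 at 1000 nM.

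Counts over all genes moved by over 1.5 times in some settings. They lay between 399 and 1878 in XG1 at 100 nM (807), 1110 and 2641 in XG1 at 1000 nM (2152), 63 and 980 in AMO1 at 100 nM (268), 1185 and 3049 in AMO1 at 1000 nM (2091), 0 and 311 between the XG1 doses (17), 2 and 118 between the AMO1 doses (22), 1 and 76 for the lines' difference at 100 nM (19), and 27 and 216 at 1000 nM (83), over all alternatives.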
